A study of Mus musculus with 20 samples.

Results

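The U2AF family and its helpers, the proteins that read the 3′ end of an intron, were examined here in mouse bone marrow that expressed normal or mutant U2AF1. The set holds 8 genes, U2af1, U2af2, U2af1l4, Zrsr1, Zrsr2, Puf60, Rbm39 and Sf1. They were picked by name, found by their Ensembl identifiers among 37620 genes counted, and 359 of the 554616 splice junctions in the merged table lay in them. The recipients were lethally irradiated F1 mice of a C57BL/6 and 129S4Sv/Jae cross, aged 6 to 12 weeks, that carried engrafted marrow pooled from 2 to 3 transgenic donors aged 8 to 12 weeks. All 4 groups of 5 mice carried the rtTA activator and a doxycycline-inducible transgene, either U2AF1(WT) or U2AF1(S34F). After at least 6 weeks of engraftment all received chow with 625 ppm doxycycline for 7 days, so that no group was without a transgene. Within each genotype 5 mice received sudemycin D6, a small molecule that binds the splicing factor SF3B1, at 50 mg/kg a day as 4 hour infusions over the last 5 days, and 5 received the vehicle hydroxypropyl-β-cyclodextrin. Marrow RNA was taken 18 hours after the last dose, depleted of ribosomal RNA and made into stranded libraries. The host's own residual cells, and the species and isoform of the transgenic cDNA, are not given in the sources used here, and the counts do not separate the transgene from the mouse gene U2af1.

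Recognition of a 3′ splice site begins when SF1 binds the branch point, U2AF2 (the large U2AF subunit) binds the polypyrimidine tract and U2AF1 (the small subunit) contacts the AG at the end of the intron and the bases beside it. U2AF then hands the site over to the U2 snRNP, whose SF3B complex includes SF3B1. U2AF1L4 is a paralogue of the small subunit, ZRSR2 and its relative ZRSR1 are related proteins of which ZRSR2 serves U12-type introns, and PUF60 and RBM39 carry domains like those of U2AF2 and act beside it at weak sites. Several of these genes are recurrently mutated in myeloid malignancies.

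Splicing differences between groups were called in 2 members, Rbm39 and U2af1, those of U2af1 by edgeR and not by limma. Some of the 3′ splice sites concerned are shown because they are what the U2AF dimer reads. The sequences below were read 5′ to 3′ from mm9, 20 intron bases followed by 10 exon bases, with the last 3 intron bases in capitals.
Rbm39 73-base exon: ccatctatctctctttgTAGacttgcctaa
Rbm39 50-base exon: cttctatcaaccttgctTAGgatgagaaca
Rbm39 155-base and 274-base exons: tgaatccctgtttgcttCAGggcgagatgt
U2af1 upstream 67-base exon: tttattttttttccccgCAGaccatcttga
U2af1 downstream 67-base exon: tgttgcgttttgtatttCAGaccattgccc
These windows lay on the minus strand at chr2:156004679-156004708, chr2:156003112-156003141, chr2:156003633-156003662, chr17:31789504-31789533 and chr17:31788648-31788677. The 73-base and 50-base exons of Rbm39 both follow TAG and both U2af1 exons follow CAG. Of the Rbm39 exons in called events whose sites are not shown, the 72-base and 239-base exons follow TAG and the 55-base exon AAG. Over the 20537 distinct 3′ splice sites of cassette exons tested, the base before AG was C in 56.6%, T in 35.9%, A in 6.89% and G in 0.536%. The 73-base exon of Rbm39 (chr2:156004616-156004688) occurred in 5 annotated transcripts, of which 4 were annotated as subject to nonsense-mediated decay and 1 as a retained intron, and its last 30 bases (chr2:156004616-156004645) are shown because they hold the stop codon annotated in all 4 of the former, in capitals.
Rbm39 73-base exon, end: ttgattccagtgtgaactgtcaatcaTAAg
The 67-base exons of U2af1 (chr17:31789447-31789513 and chr17:31788591-31788657) are alternatives at the same place in the coding sequence, with 1 protein-coding transcript each. They matched at 44 of 67 bases (65.7%), and their first 30 bases are shown with the differing bases in capitals.
U2af1 upstream 67-base exon, start: accatCTTGAtTCAAaacatCtaTcgtaaT
U2af1 downstream 67-base exon, start: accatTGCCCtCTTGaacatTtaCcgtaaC

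Gene counts per library ran from 41145892 to 62138138 and junction counts from 34384214 to 64813149. Counts of Xist, which silences an X chromosome, were 39145 at the least and 78640 at the most with the U2AF1(WT) transgene, yet no more than 8 with U2AF1(S34F), and Y-linked Kdm5d and Uty behaved in the opposite way, so sex and genotype cannot be told apart in any genotype comparison, whereas both drug comparisons lie within one pattern. All 38 marker genes of marrow cell types passed the filter on low counts. The summed level of the 6 neutrophil markers ran from 29984 to 34445 CPM (counts after edgeR's scaling for library size) under vehicle with U2AF1(WT) and from 43193 to 67820 CPM with U2AF1(S34F). The corresponding ranges under sudemycin D6 were 28526 to 49771 and 36714 to 56418 CPM. Such a sum mostly follows its most abundant genes. Of these 6 markers 3 were called under vehicle (median log2 fold change 0.29) and 1 under drug (0.05), all higher with U2AF1(S34F). Of the 4 monocyte markers 2 were called under vehicle, both lower (median -0.50), and under drug 1 was higher and 1 lower (-0.03). The 6 B cell markers had medians of -0.97 under vehicle, with none called, and -1.03 under drug, with 3 called lower. Of the 38 markers 14 were called between genotypes under vehicle (7 higher, 7 lower) and 13 under sudemycin D6 (2 higher, 11 lower), beside 39.5% and 36.8% of all genes, and the part of marrow composition in the results below was not tested. In bulk marrow, fewer cells of a type and less RNA per cell cannot be told apart.

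Per kilobase of exon, over all 20 mice, the levels formed an upper and a lower set. Rbm39 averaged 59.2 CPM per kilobase (range 45.5 to 73.3), U2af2 49.2 (37.7 to 63.9), U2af1 47.3 (35.8 to 59.6) and Puf60 45.8 (40.2 to 51.9). Sf1 lay between the sets at 27.5 (19.1 to 35.8). The remaining members were lower still, with U2af1l4 at 5.22 (4.65 to 5.94), Zrsr1 at 4.46 (3.20 to 6.23) and Zrsr2 at 3.34 (2.85 to 3.97). Neighbours in this order overlapped in range, except that every mouse had more Puf60 than Sf1 and more Sf1 than U2af1l4 on this scale. U2af1l4 overlaps the gene Tmem149 on the same strand, so reads there are of uncertain origin.

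**Figure D1:**
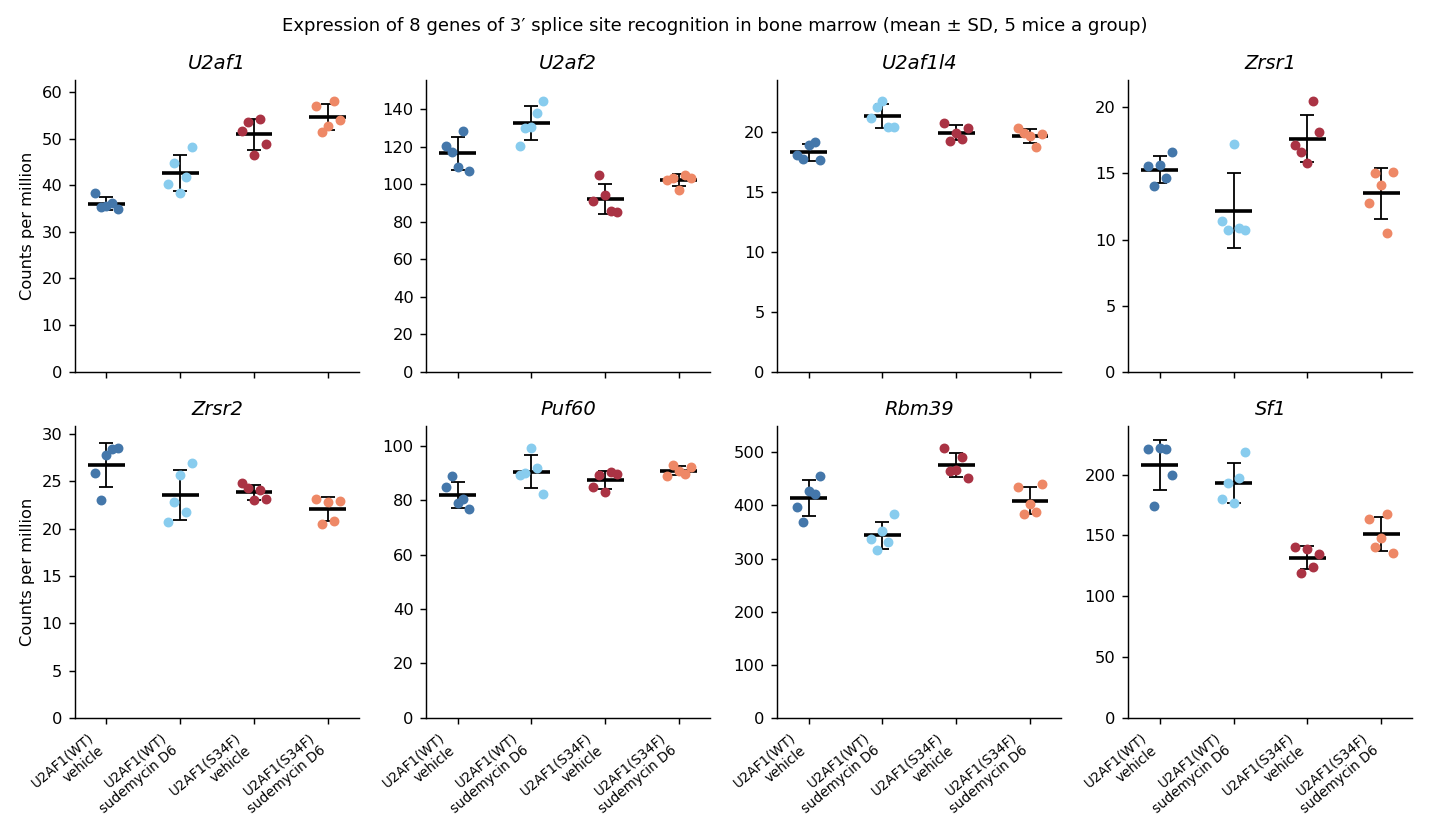
Levels of the 8 genes in each mouse, in CPM (y axis, linear from 0), by genotype and treatment (x axis), with the mean and SD of 5 mice. U2af1 sits higher and U2af2 and Sf1 lower in both U2AF1(S34F) groups than in the U2AF1(WT) group given the same treatment.

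Which members differed between genotypes without drug was asked first, in vehicle-treated mice. U2AF1(S34F) marrow held more U2af1 and Rbm39 and less U2af2, Sf1 and Zrsr2, so 5 of 8 members were called at FDR<10% (edgeR quasi-likelihood test, Benjamini-Hochberg adjustment over 14817 genes) against 39.5% of all genes (19.7% higher and 19.8% lower in the mutant). With so many genes called, the count of members is read only beside that share. The median log2 fold change was 0.10 over the members and 0.00 over all genes.

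U2af1 measured 38.4, 35.5, 35.5, 36.3 and 34.8 CPM in vehicle-treated U2AF1(WT) mice and 51.6, 53.7, 46.4, 54.3 and 48.9 CPM in vehicle-treated U2AF1(S34F) mice. Every mutant mouse was above every U2AF1(WT) mouse. The means of 36.1 ± 1.38 and 51.0 ± 3.32 CPM (SD, n=5) gave a 1.41-fold difference, a log2 fold change of 0.48 (SE 0.07, FDR=0.000294, exact permutation p=0.00794, the smallest that 5 against 5 mice allow). With both genotypes carrying a U2AF1 transgene, this compares transgenic with transgenic marrow.

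U2af2, its partner in the dimer, moved the other way. It measured 120.1, 117, 109, 128 and 107 CPM in U2AF1(WT) and 90.8, 105, 94.2, 85.9 and 85.0 CPM in U2AF1(S34F) mice, again without overlap. The means were 116 ± 8.60 and 92.2 ± 8.0 CPM, a log2 fold change of -0.35 (SE 0.08, FDR=0.00449, edgeR). Sf1, the branch point protein, showed the largest difference of the 8 members, with 221, 175, 222, 221 and 199.9 CPM in U2AF1(WT) and 140.5, 119, 139, 124 and 135 CPM in U2AF1(S34F) mice. The lowest U2AF1(WT) mouse stayed above the highest mutant mouse, and the mean fell from 208 ± 20.8 to 131 ± 9.45 CPM, a log2 fold change of -0.67 (SE 0.09, FDR=0.000222, edgeR).

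Rbm39 and Zrsr2 passed the threshold narrowly. Rbm39 measured 397, 369, 427, 422 and 456 CPM in U2AF1(WT) and 509, 465, 468, 490.4 and 451 CPM in U2AF1(S34F) mice, and 1 mutant mouse lay within the range of the U2AF1(WT) mice. Its log2 fold change was 0.19 (SE 0.08, FDR=0.0846, edgeR), and the call was lost when any of 6 of the 10 mice was left out (U2AF1(WT) mice 1 and 3, U2AF1(S34F) mice 1, 5, 7 and 11). X-linked Zrsr2 measured 25.9, 23.0, 27.8, 28.4 and 28.6 CPM against 24.8, 24.3, 23.0, 24.0 and 23.1 CPM, with the ranges overlapping (log2 fold change -0.18, SE 0.08, FDR=0.0955, edgeR). Leaving out any mouse but U2AF1(WT) mouse 2 ended that call, and DESeq2 gave it an adjusted p of 0.106.

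Zrsr1, U2af1l4 and Puf60 were not called. Zrsr1 averaged 15.3 ± 0.996 and 17.6 ± 1.80 CPM (log2 fold change 0.19, FDR=0.123, edgeR). It passed when U2AF1(S34F) mouse 3 or mouse 5 was left out, with log2 fold changes of 0.23 and 0.23. U2af1l4 averaged 18.3 ± 0.689 and 19.97 ± 0.641 CPM without overlap between groups (log2 fold change 0.11, FDR=0.259, edgeR), and Puf60 81.9 ± 4.79 and 87.4 ± 3.28 CPM (log2 fold change 0.08, FDR=0.389, edgeR).

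The same comparison under sudemycin D6 asked whether these differences held in drug-treated mice. Of the 8 members 4 were called, against 36.8% of 14677 genes (17.2% higher and 19.6% lower), U2af1 and Rbm39 higher and U2af2 and Sf1 lower in U2AF1(S34F) mice. The median log2 fold change was -0.05 over the members and -0.03 over all genes. U2af1 measured 40.3, 44.7, 38.5, 41.8 and 48.3 CPM in U2AF1(WT) and 57.0, 51.4, 52.8, 58.0 and 54.0 CPM in U2AF1(S34F) mice, without overlap (log2 fold change 0.35, SE 0.07, FDR=0.00416, edgeR). U2af2 measured 120.1, 129.95, 130.3, 138 and 144 CPM against 102, 103, 97.0, 105 and 103 CPM, also without overlap (log2 fold change -0.38, SE 0.06, FDR=0.00162, edgeR).

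Sf1 measured 180.3, 193, 177, 197 and 218 CPM in drug-treated U2AF1(WT) and 163, 141, 148, 167 and 136 CPM in drug-treated U2AF1(S34F) mice. The groups stayed apart by a smaller margin than under vehicle, with a log2 fold change of -0.36 (SE 0.08, FDR=0.0081, edgeR). Rbm39 measured 337, 316, 352, 332 and 383 CPM against 434, 383, 402, 388 and 439.5 CPM, and the lowest mutant mouse lay level with the highest U2AF1(WT) mouse (log2 fold change 0.25, SE 0.08, FDR=0.0351, edgeR). Zrsr2 averaged 23.6 ± 2.63 and 22.1 ± 1.26 CPM (FDR=0.414, edgeR), Puf60 90.4 ± 6.12 and 90.8 ± 1.73 CPM (FDR=0.979), U2af1l4 21.4 ± 0.966 and 19.7 ± 0.589 CPM (FDR=0.191) and Zrsr1 12.2 ± 2.83 and 13.5 ± 1.92 CPM (FDR=0.505). Zrsr1 was called when U2AF1(WT) mouse 9 was left out, with a log2 fold change of 0.31, more than 1.5 times its value with that mouse (0.15).

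**Figure D2:**
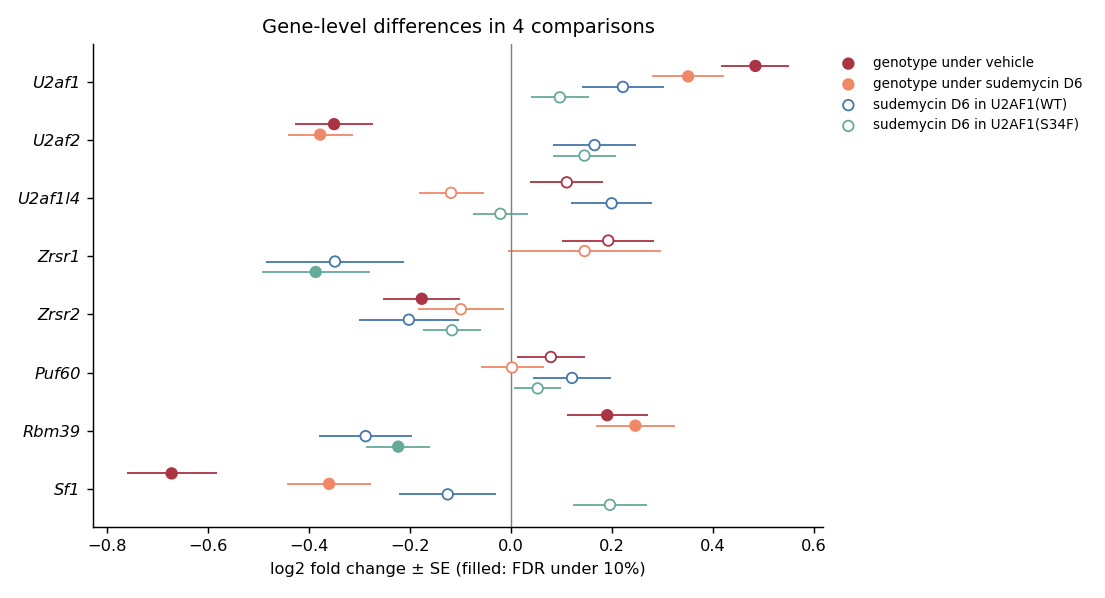
Log2 fold changes with their SE (x axis) for each of the 8 genes (rows) in the genotype and drug comparisons (colours), filled where FDR<10%. The genotype comparisons place U2af1 and Rbm39 above 0 and U2af2 and Sf1 below it under both treatments, and of the drug comparisons only Zrsr1 and Rbm39 in U2AF1(S34F) mice are filled.

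Whether sudemycin D6 altered the levels of these genes was asked within each genotype. In U2AF1(WT) mice no member was called at FDR<10% by edgeR, against 3.07% of 14763 genes. At an unadjusted p below 0.05 there were 4, U2af1, U2af1l4, Zrsr1 and Rbm39, and DESeq2 called 1, Rbm39. The shares of all genes at that unadjusted threshold and by DESeq2 are not given here, so neither count is a result about the set. Rbm39 averaged 414 ± 33.0 CPM with vehicle and 344 ± 25.3 CPM with drug (log2 fold change -0.29, SE 0.09, FDR=0.163, edgeR), and 1 drug-treated mouse lay within the vehicle range. It was called without vehicle-treated mouse 2, at a log2 fold change of -0.32. Of the 38 cell type markers 3 were called in this comparison, all lower with drug. They were 2 of the 4 stem and progenitor markers and 1 of the 6 B cell markers. The summed stem and progenitor markers ran from 99.1 to 153 CPM with vehicle and from 60.8 to 129 CPM with drug, in overlapping ranges.

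U2af1 and U2af1l4 gave higher values in every drug-treated than in every vehicle-treated U2AF1(WT) mouse. For U2af1 the groups were barely apart, at 34.8 to 38.40 CPM with vehicle and 38.46 to 48.3 CPM with drug. The U2af1l4 ranges were 17.7 to 19.2 and 20.5 to 22.6 CPM. The log2 fold changes were 0.22 (FDR=0.235) and 0.20 (FDR=0.283) by edgeR, with an exact permutation p of 0.00794 each, and both were called when all 20 mice shared 1 model. Zrsr1 stood at 10.7 to 11.4 CPM in 4 drug-treated mice and at 17.2 CPM in mouse 9, against 14.03 to 16.6 CPM with vehicle. Its log2 fold change of -0.35 (FDR=0.279, edgeR) became -0.50, and was called, without that mouse. U2af2 (log2 fold change 0.17, FDR=0.412), Zrsr2 (-0.20, FDR=0.402), Puf60 (0.12, FDR=0.544) and Sf1 (-0.12, FDR=0.631) were not called by edgeR.

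In U2AF1(S34F) mice 2 of 8 members were called, against 10.8% of 14714 genes (4.94% higher and 5.85% lower), and both were lower with drug. Rbm39 measured 509, 465, 468, 490.4 and 451 CPM with vehicle and 434, 383, 402, 388 and 439.5 CPM with drug, without overlap (log2 fold change -0.22, SE 0.06, FDR=0.0588, edgeR). Zrsr1 measured 17.2, 16.6, 15.8, 20.5 and 18.1 CPM and then 12.8, 15.0, 14.2, 10.5 and 15.1 CPM, also without overlap (log2 fold change -0.39, SE 0.11, FDR=0.0548, edgeR). Neither call held in 1 model of all 20 mice (FDR=0.121 and 0.107). The Rbm39 call was lost without vehicle-treated mouse 1 or drug-treated mouse 6, 9 or 10, and the Zrsr1 call without vehicle-treated mouse 11 or drug-treated mouse 2.

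The remaining members were not called in drug-treated U2AF1(S34F) mice by edgeR. Sf1 averaged 131 ± 9.45 CPM with vehicle and 151 ± 13.9 CPM with drug (log2 fold change 0.20, FDR=0.138), and it was called by DESeq2. U2af2 averaged 92.2 ± 8.0 and 102 ± 3.03 CPM (log2 fold change 0.15, FDR=0.183, edgeR) and was called without vehicle-treated mouse 3, at a log2 fold change of 0.19. U2af1 averaged 51.0 ± 3.32 and 54.7 ± 2.79 CPM (log2 fold change 0.10, FDR=0.334), Zrsr2 23.9 ± 0.763 and 22.1 ± 1.26 CPM (-0.12, FDR=0.248), Puf60 87.4 ± 3.28 and 90.8 ± 1.73 CPM (0.05, FDR=0.526) and U2af1l4 19.97 ± 0.641 and 19.7 ± 0.589 CPM (-0.02, FDR=0.866) by edgeR. The summed stem and progenitor markers ran from 125 to 162 CPM with vehicle and from 85.7 to 116 CPM with drug in these mice, without overlap. The summed monocyte markers moved the other way, from 1036 to 1394 CPM with vehicle and from 1398 to 1838 CPM with drug, also without overlap. Of the 4 monocyte markers only 1 was called, higher, and of the 4 stem and progenitor markers 3, all lower. The median log2 fold change of the stem and progenitor markers with drug was -0.53 in these mice and -0.55 in U2AF1(WT) mice. Of the 4 megakaryocyte markers 2 were called, both lower, and their median log2 fold change of -0.68 was the lowest of the marker lists. Of all 38 markers 8 were called, 7 lower and 1 higher with drug, and their part in the drug differences was not tested.

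Mutant mice given the drug were also compared with U2AF1(WT) mice given vehicle, a comparison that shares its groups with those above. It called 5 of 8 members, against 50.2% of 14761 genes (25.1% in each direction). It also called 26 of the 38 cell type markers, 20 lower and 6 higher, with all 6 B cell markers lower (median log2 fold change -1.54), and their part in the members' differences was not tested. U2af1 (1.51-fold, log2 fold change 0.60, FDR=2.02e-05) and Puf60 (0.15, FDR=0.0693) were higher and U2af2 (-0.19, FDR=0.0369), Zrsr2 (-0.28, FDR=0.0127) and Sf1 (-0.46, FDR=0.00126) lower by edgeR. Puf60 lost the call when any of 6 mice was left out (vehicle-treated U2AF1(WT) mice 3, 4 and 5, drug-treated U2AF1(S34F) mice 6, 9 and 12). Rbm39 averaged 414 ± 33.0 and 409 ± 26.0 CPM (log2 fold change -0.02, FDR=0.876). It had been called higher in U2AF1(S34F) mice under both treatments, and lower with drug in U2AF1(S34F) mice but not in U2AF1(WT) mice. The test of whether the drug difference itself differed between genotypes called no member in edgeR, against 0.0130% of 15392 genes. Unadjusted p-values were below 0.05 for U2af1l4 (difference of log2 fold changes -0.24, FDR=0.461) and Sf1 (0.30, FDR=0.535).

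The higher U2af1 level was uneven along the gene. Reads that joined exons 1 and 2 (3′ splice site of exon 2) had a mean of 6.27 rpm (reads scaled to the total of junction reads in the library) in vehicle-treated U2AF1(WT) and 15.7 in U2AF1(S34F) mice, 2.50-fold more, whereas reads that joined exons 5 and 6 stood at 20.7 and 19.95. The first of these ranged from 4.13 to 8.24 and from 15.0 to 16.4 between mice, without overlap (exact permutation p=0.00794). The second overlapped (exact permutation p=0.659). Between these, the junctions from exon 2 to the downstream and upstream 67-base exons were 1.82-fold and 1.97-fold higher (exact permutation p=0.00794 each), exons 4 and 5 were joined at 23.1 and 23.3 rpm, and exons 6 and 7 and exons 7 and 8 were joined 1.25-fold and 1.40-fold more often (exact permutation p=0.0317 and 0.00794). Under sudemycin D6 the ratios of mutant to U2AF1(WT) means were 2.00 at exons 1 and 2, 0.974 at exons 5 and 6 and 1.45 at exons 7 and 8 (exact permutation p=0.00794, 0.841 and 0.0159). The ratio was highest at the first junction and nearest 1 between exons 4 and 6.

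Within each mouse, reads joining exons 1 and 2 divided by reads joining exons 5 and 6 gave 0.221, 0.329, 0.351, 0.183 and 0.489 in vehicle-treated U2AF1(WT) mice and 0.875, 0.631, 0.831, 0.829 and 0.814 in vehicle-treated U2AF1(S34F) mice. These did not overlap (exact permutation p=0.00794). With drug the ratios were 0.296, 0.171, 0.608, 0.440 and 0.225 in U2AF1(WT) and 0.670, 0.733, 0.591, 0.564 and 0.765 in U2AF1(S34F) mice, with drug-treated U2AF1(WT) mouse 9 inside the mutant range (exact permutation p=0.0238). The means with vehicle and with drug were 0.315 ± 0.120 and 0.348 ± 0.177 in U2AF1(WT) and 0.796 ± 0.0949 and 0.665 ± 0.0873 in U2AF1(S34F) mice (exact permutation p=0.754 and 0.0556).

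Across the 5049 genes with at least 5 annotated junctions of 100 or more reads on average, the SD of the log2 ratio of mutant to U2AF1(WT) reads between junctions of a gene had a median of 0.236 under vehicle. It was 0.489 for U2af1, at percentile 98.7, 0.360 for U2af1l4 over 5 junctions, at percentile 93.0, 0.342 for Rbm39, at percentile 90.0, and 0.297 for Sf1, at percentile 77.9. U2af2 and Puf60 were among the most even genes, with 0.130 and 0.132 (percentiles 5.37 and 5.74). Under vehicle the 12 U2af2 junctions counted were all lower in the mutant, at 0.620 to 0.800 of U2AF1(WT), and the 11 of Sf1 also, at 0.454 to 0.820. Those of Puf60 ran from 0.891 to 1.18. Under sudemycin D6 these ranges were 0.543 to 0.826 for U2af2, 0.568 to 1.07 for Sf1 and 0.811 to 1.19 for Puf60. The median SD over genes was then 0.255. Percentiles under drug were 89.4 for U2af1, 41.2 for U2af1l4, 91.0 for Rbm39, 81.8 for Sf1, 23.2 for U2af2 and 11.3 for Puf60.

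**Figure D3:**
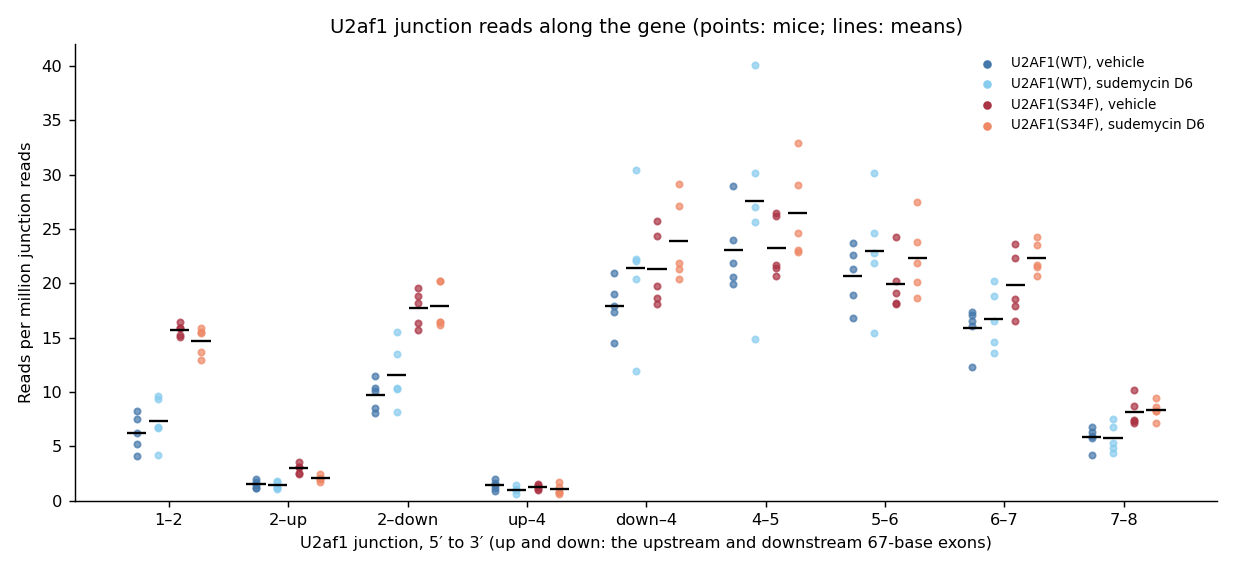
Scaled reads (rpm, y axis, linear from 0) at each U2af1 junction from the 5′ to the 3′ end (x axis), with points for mice and lines for the mean of each group of 5. The U2AF1(S34F) lines run above the U2AF1(WT) lines at exons 1 and 2 and meet them at exons 5 and 6.

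Splicing was measured as Ψ, the share of junction reads that used one of 2 alternatives, for cassette exons, alternative splice sites and mutually exclusive exons, and called at FDR<10% with |ΔΨ|>1%. For a cassette exon the reads into it and out of it were averaged and set against those that skipped it, and reads at either junction can come from transcripts that lack the exon named at the other. The test uses nearly the same spread for every event, so its smallest FDRs are not to be leaned on, and the event calls below are given with a limma FDR (limma on Ψ). Of 60 events in the members 7 were called between genotypes under vehicle (4.04% of 29955 events in all genes) and 5 of 68 under sudemycin D6 (3.84% of 29534), all of them in Rbm39. With the drug, 3 of 66 were called in U2AF1(WT) mice (1.50% of 29675) and 2 of 61 in U2AF1(S34F) mice (1.68% of 29367), and limma called 1, 1, 0 and 0 of these 4 sets. None was called with an estimated dispersion, and none of 59 in the test of whether the drug difference differed between genotypes (0.00690% of 29000 events, 1 with an unadjusted p below 0.05; limma also none). Events of a gene share junctions and are not independent.

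The Rbm39 73-base exon, with its annotated stop codon, was included less often in U2AF1(S34F) marrow. Its Ψ was 0.571, 0.426, 0.559, 0.555 and 0.481 in vehicle-treated U2AF1(WT) and 0.320, 0.321, 0.336, 0.274 and 0.286 in vehicle-treated U2AF1(S34F) mice, without overlap. The means were 0.519 ± 0.0626 and 0.307 ± 0.0260 (ΔΨ -0.211, edgeR FDR=3.00e-36, limma FDR=0.0294, exact permutation p=0.00794), and each mouse gave 1111 to 3436 reads. Under sudemycin D6, Ψ was 0.448, 0.600, 0.492, 0.425 and 0.521 in U2AF1(WT) and 0.283, 0.337, 0.288, 0.291 and 0.247 in U2AF1(S34F) mice, again without overlap (ΔΨ -0.208, edgeR FDR=3.32e-32, limma FDR=0.036, exact permutation p=0.00794). With an estimated dispersion the FDRs were 0.506 and 0.467. The drug itself gave a ΔΨ of -0.0217 in U2AF1(WT) and -0.018 in U2AF1(S34F) mice (edgeR FDR=0.711 and 0.624, exact permutation p=0.603 and 0.357), and the 2 drug differences differed by 0.00364 (edgeR FDR=1).

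The reads behind this Ψ differed mainly in the junction that skips the exon. It carried 11.1 ± 2.18 rpm in vehicle-treated U2AF1(WT) and 25.1 ± 2.94 in U2AF1(S34F) mice, 2.25-fold more and without overlap, and 9.82 ± 2.21 and 20.4 ± 2.11 with drug, 2.08-fold more (exact permutation p=0.00794 each). Reads into the exon fell from 13.8 ± 1.78 to 10.5 ± 0.666 under vehicle and from 11.8 ± 1.58 to 7.79 ± 0.896 under drug between genotypes (exact permutation p=0.0238 and 0.0159), while reads out of it stood at 10.1 ± 2.78 and 11.7 ± 1.51 under vehicle (exact permutation p=0.310). With sudemycin D6 in U2AF1(S34F) mice all these junctions carried fewer reads, 0.743 of vehicle into the exon, 0.748 out of it and 0.814 across it (exact permutation p=0.00794, 0.0159 and 0.0317). In U2AF1(WT) mice the corresponding ratios were 0.853, 0.718 and 0.880 (exact permutation p=0.103, 0.0476 and 0.381).

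**Figure D4:**
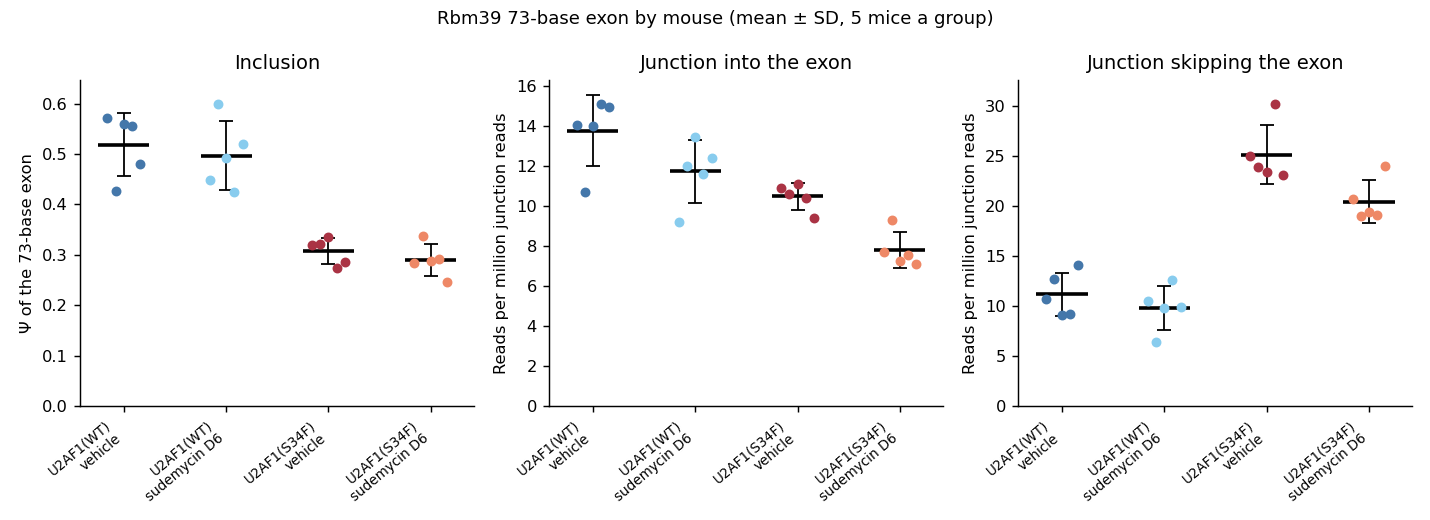
Inclusion (Ψ, y axis from 0) of the Rbm39 73-base exon in each mouse and the scaled reads (rpm, y axis from 0) into and skipping it, by group (x axis), with mean and SD of 5 mice. Ψ is lower and skipping reads are higher in both U2AF1(S34F) groups, without overlap with the U2AF1(WT) group given the same treatment.

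Further Rbm39 exons found in no annotated protein-coding transcript differed by smaller amounts, and most of these calls rested on the edgeR test alone. A 72-base exon after the 50-base exon (chr2:155999833-155999904) had a mean Ψ of 0.108 in vehicle-treated and 0.108 in drug-treated U2AF1(WT) mice against 0.0788 and 0.0666 in U2AF1(S34F) mice (ΔΨ -0.0294 and -0.0415, edgeR FDR=0.0277 and 1.37e-05, limma FDR=0.328 and 0.244). Without U2AF1(WT) mouse 1 or 3 the call under vehicle was lost. A 239-base exon (chr2:155993665-155993903) had a Ψ of 0.0102 to 0.0189 with U2AF1(WT) under vehicle and 0.00322 to 0.00466 with U2AF1(S34F), without overlap (ΔΨ -0.0109, edgeR FDR=9.38e-05, limma FDR=0.175), and ΔΨ dropped below the limit of 1% without U2AF1(WT) mouse 1 or 3. The 155-base exon, which follows CAG, had a mean Ψ of 0.0365 in drug-treated U2AF1(WT) and 0.0121 in drug-treated U2AF1(S34F) mice, without overlap (ΔΨ -0.0244, edgeR FDR=0.00262, limma FDR=0.294). The 274-base exon that starts at the same base had 0.0401 and 0.0177 (ΔΨ -0.0224, edgeR FDR=0.0216, limma FDR=0.314), a call lost without U2AF1(WT) mouse 8. Both share the reads that enter them, a mean of 32.2 a mouse in drug-treated U2AF1(WT) and 24.4 in drug-treated U2AF1(S34F) mice. Under vehicle both exons were also called lower in the mutant, with ΔΨ -0.0127 and -0.0134 (edgeR FDR=0.0559 and 0.0917, limma FDR=0.645 and 0.583), in groups that overlapped. Each of these calls was lost without any of U2AF1(WT) mice 1, 2 and 4 and U2AF1(S34F) mice 7 and 11, and that of the 274-base exon also without U2AF1(S34F) mouse 3.

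A pair of further calls set an exon against the junction that ran from the 73-base exon past it, in pairings of annotated ends that are not annotated together. For the 50-base exon the mean Ψ was 0.981 in vehicle-treated U2AF1(WT) and 0.997 in vehicle-treated U2AF1(S34F) mice (ΔΨ 0.0156, edgeR FDR=0.0158, limma FDR=0.256), and for the 72-base exon 0.886 and 0.97 (ΔΨ 0.0843, edgeR FDR=0.0477, limma FDR=0.218). Neither Ψ is limited to transcripts that hold the 73-base exon. Reads leaving the 50-base exon, which transcripts without the 73-base exon share, made up 64.3% to 74.7% of its inclusion reads in the vehicle-treated U2AF1(WT) group, and the corresponding range with U2AF1(S34F) was 77.3% to 81.4%. The junction from the 73-base exon into the 72-base exon held a mean of 0.4 reads a mouse in each of these groups. The 50-base call was lost without U2AF1(WT) mouse 5 and the 72-base call without any of 5 mice (U2AF1(WT) mice 4 and 5, U2AF1(S34F) mice 3, 7 and 11). Set against the junction from the 73-base to the 50-base exon, the 155-base exon had a Ψ of 0.0705 to 0.106 in vehicle-treated and 0.0981 to 0.164 in drug-treated U2AF1(WT) mice, and sudemycin D6 raised its mean from 0.0916 to 0.145 (ΔΨ 0.0533, edgeR FDR=0.0601, limma FDR=0.274, exact permutation p=0.0238). The 274-base exon moved by 0.0529 (edgeR FDR=0.0818, limma FDR=0.279). Most inclusion reads of both came from the junction that leads from the 73-base exon into either, with a mean of 88.8 a mouse with vehicle and 120 with drug, so these are largely 1 measurement. Both calls were lost when any of 7 mice was left out (vehicle-treated mice 1, 3 and 5, drug-treated mice 6, 8, 9 and 10). Under drug the 155-base exon after the 73-base exon was 0.0984 in U2AF1(S34F) mice (ΔΨ -0.0466 from U2AF1(WT), edgeR FDR=0.097, limma FDR=0.249), a call kept in 1 of 10 fits that left out a mouse, the one without U2AF1(WT) mouse 12.

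Against vehicle-treated U2AF1(WT) mice, drug-treated U2AF1(S34F) mice had 8 of 59 events called (6.93% of 29900 events), 5 in Rbm39 and 3 in U2af1. Of these 8 limma called 3, all in Rbm39, and it called 1 event that edgeR did not, the 55-base exon at chr2:156002139-156002193 joined to chr2:156000710 (ΔΨ 0.0977, limma FDR=0.0839, edgeR FDR=0.246). The Rbm39 calls were the 73-base exon (ΔΨ -0.229, limma FDR=0.00779), the 72-base exon after the 50-base exon (-0.0416, limma FDR=0.0951), the 239-base exon (-0.012, limma FDR=0.0782), the 50-base exon after the 73-base exon (0.0143, limma FDR=0.203) and the same 55-base exon joined to chr2:155998758 (-0.0176, limma FDR=0.280). Without drug-treated U2AF1(S34F) mouse 12 the count fell to 5, with the calls of the 50-base and 55-base exons among those lost. The former was also lost without vehicle-treated U2AF1(WT) mouse 5 and the latter without mouse 3.

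Both genotypes used mainly the downstream of the 67-base exons of U2af1. The share of the upstream one was called lower with sudemycin D6 by edgeR, though not by limma. In U2AF1(S34F) mice that share was 0.0819, 0.0801, 0.128, 0.104 and 0.104 with vehicle and 0.0639, 0.0653, 0.0689, 0.0795 and 0.067 with drug, without overlap. The means were 0.0995 ± 0.0196 and 0.0689 ± 0.00622 (ΔΨ -0.0306, edgeR FDR=0.0013, limma FDR=0.164, exact permutation p=0.00794). In U2AF1(WT) mice it was 0.0799, 0.121, 0.066, 0.0893 and 0.124 with vehicle and 0.0697, 0.0651, 0.0976, 0.0682 and 0.0552 with drug, in overlapping ranges (ΔΨ -0.0249, edgeR FDR=0.0624, limma FDR=0.405, exact permutation p=0.111). The latter call was lost without vehicle-treated mouse 2 or 5 or drug-treated mouse 8, 10 or 12. Among mutually exclusive exons of all genes, 10.7% were called in U2AF1(WT) and 7.77% in U2AF1(S34F) mice.

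Between genotypes the ΔΨ of this choice was 0.00345 under vehicle and -0.00222 under drug (edgeR FDR=0.992 and 1), and the drug differences of the genotypes differed by -0.00567 (limma FDR=0.949) and were not called by edgeR to differ. Drug-treated U2AF1(S34F) against vehicle-treated U2AF1(WT) mice gave a ΔΨ of -0.0271 (edgeR FDR=0.00886, limma FDR=0.196), lost without U2AF1(WT) mouse 5. Reads that joined the 2 exons to each other were few, with a mean of 30 and 44.2 a mouse in vehicle-treated and drug-treated U2AF1(WT) and 51 and 43.8 in vehicle-treated and drug-treated U2AF1(S34F) mice. They entered a pair of events together with junctions to exon 2 or exon 4 that other transcripts share, so neither event measures the joined exons alone. Inclusion of the upstream exon against exon 2 joined straight to the downstream one had a mean Ψ of 0.0994 with vehicle and 0.074 with drug in U2AF1(S34F) mice (ΔΨ -0.0254, edgeR FDR=0.0849, limma FDR=0.613), a call lost without any of 7 mice (vehicle-treated mice 5, 7 and 11, drug-treated mice 2, 6, 10 and 12). Against vehicle-treated U2AF1(WT) mice it was lower in drug-treated U2AF1(S34F) mice (ΔΨ -0.0275, edgeR FDR=0.0859, limma FDR=0.207). Inclusion of the downstream exon against the upstream one joined straight to exon 4 was higher in that comparison (0.868 against 0.923, ΔΨ 0.0554, edgeR FDR=0.0143, limma FDR=0.174), and reads from the downstream exon to exon 4 made up 94.4% to 98.0% of its inclusion reads in drug-treated U2AF1(S34F) and 95.8% to 97.2% in vehicle-treated U2AF1(WT) mice. In that comparison the call of the upstream exon was lost without any of 7 mice (U2AF1(WT) mice 1, 2 and 5, U2AF1(S34F) mice 2, 6, 10 and 12) and that of the downstream exon without U2AF1(WT) mouse 5.

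**Figure D5:**
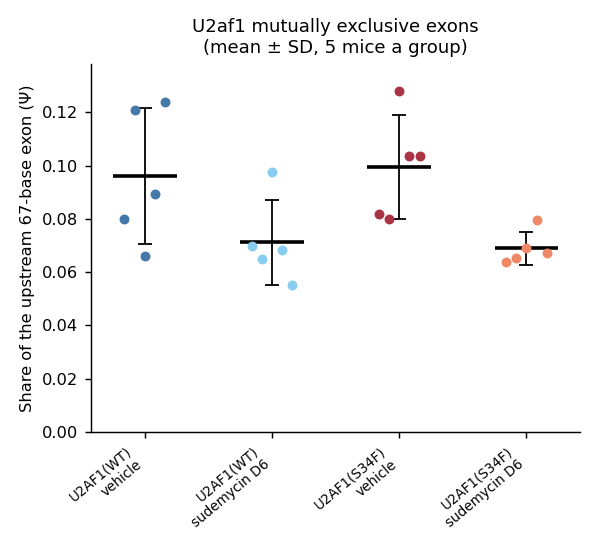
Share of the upstream 67-base exon of U2af1 among reads that used one of the alternatives (Ψ, y axis from 0) in each mouse, by group (x axis), with mean and SD of 5 mice. All groups lie below 0.13, and the drug-treated U2AF1(S34F) mice lie below all vehicle-treated ones of that genotype.

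The share of each junction among all junctions at its splice site gave 7 calls of 150 in the members under vehicle (2.43% of 144821 in all genes), 7 of 154 under drug between genotypes (2.23% of 141980) and none of 151 and 150 for the drug within U2AF1(WT) and U2AF1(S34F) mice (0.886% and 0.924%). In those last 2 sets 16 and 16 had an unadjusted p below 0.05, and limma called none. The share of all junctions at that unadjusted threshold is not given here, so these counts are not read further. Between vehicle-treated U2AF1(WT) and drug-treated U2AF1(S34F) mice 12 of 151 were called (4.31%), and limma called 2, 2 and 5 of the 3 sets that held calls. Those limma called in all 3 sets were the junctions skipping and entering the Rbm39 73-base exon at their shared donor. The junction skipping the Rbm39 73-base exon took a mean share of 0.436 of reads leaving its donor in vehicle-treated U2AF1(WT) and 0.697 in U2AF1(S34F) mice, and the junction into the exon 0.541 and 0.293 (limma FDR=0.0139 and 0.0152). At the 3′ splice site of the 50-base exon, skipping took 0.519 and 0.673 and the 73-base exon 0.466 and 0.314 (limma FDR=0.124 and 0.113). In drug-treated U2AF1(S34F) mice these shares were 0.690 and 0.297, and limma called both against vehicle-treated U2AF1(WT) mice (limma FDR=0.0449 and 0.0404). In that comparison it also called the junction from the 50-base exon to chr2:155998758, at 0.791 and 0.882 of reads entering that site (limma FDR=0.0804).

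The other called shares were those of smaller Rbm39 junctions and of U2af1, and by limma none of the differences in the following sentences passed (FDR from 0.114 to 0.575). The junction from the 50-base exon straight to chr2:155998758 rose from 0.791 to 0.858 of reads entering that site under vehicle and from 0.811 to 0.882 under drug, and that from the 72-base exon fell from 0.155 to 0.0964 under drug. The junction leaving the 239-base exon fell from 0.0229 to 0.0047 at its 3′ splice site under vehicle. A junction from the 50-base exon to chr2:156000710 took 0.913 of reads entering that site in drug-treated U2AF1(WT) and 0.713 in drug-treated U2AF1(S34F) mice. Between vehicle-treated U2AF1(WT) and drug-treated U2AF1(S34F) mice its share of the reads leaving the 50-base exon fell from 0.0731 to 0.0308, and at the donor at chr2:155998564 the junction to chr2:155993486 rose from 0.932 to 0.966 as that to chr2:155996217 fell from 0.0599 to 0.0279. In U2af1 the junction between exons 1 and 2 rose from 0.956 to 0.993 of reads leaving exon 1 between genotypes under vehicle (edgeR FDR=0.0384, limma FDR=0.446), and the share of the upstream 67-base exon at the 3′ splice site of exon 4 fell from 0.073 to 0.0408 between vehicle-treated U2AF1(WT) and drug-treated U2AF1(S34F) mice (edgeR FDR=0.0598, limma FDR=0.323).

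The other members had no splicing event called in any comparison. The most balanced event of U2af2, 5′ splice sites 12 bases apart, had mean Ψ values of 0.270, 0.315, 0.289 and 0.283 in vehicle-treated and drug-treated U2AF1(WT) and vehicle-treated and drug-treated U2AF1(S34F) mice (smallest edgeR FDR 0.699). In the same order, a 51-base exon of Puf60 had 0.327, 0.311, 0.386 and 0.353 (smallest FDR 0.289) and a 76-base exon of Sf1 0.897, 0.894, 0.879 and 0.910 (0.382). In U2af1l4, 3′ splice sites 25 bases apart had 0.691, 0.691, 0.540 and 0.598 (0.273), with spreads of 0.107, 0.0441, 0.0982 and 0.0828, and a 110-base exon of Zrsr2 had 0.963, 0.987, 0.955 and 0.978 (0.719). Zrsr1 has no annotated junction. U2af1l4 events differed by as much as -0.400 in Ψ between genotypes under vehicle without passing the test (smallest FDR 0.232).

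Other components at the branch point and 3′ splice site were read from a list of 40 genes, of which 39 were tested. Between genotypes under vehicle 21 were called, 14 higher and 7 lower in U2AF1(S34F) mice, with a median log2 fold change of 0.14, against 39.5% of all genes (19.7% higher and 19.8% lower) and a median of 0.00. Under sudemycin D6 19 were called, 13 higher and 6 lower, with a median of 0.08, against 36.8% of all genes (17.2% higher and 19.6% lower) and a median of -0.03. Those called higher in both included the U2 snRNP proteins Snrpb2 (0.64 and 0.71), Sf3b6 (0.42 and 0.49), Sf3a3 (0.35 and 0.33) and U2surp (0.45 and 0.52), the U2 cofactor Htatsf1 (0.26 and 0.31), Dek (0.46 and 0.52), Srsf2 (0.29 and 0.23), Hnrnpc (0.17 and 0.38) and the helicase Dhx15 (0.32 and 0.27). Called lower in both were Sf3a2 (-0.74 and -0.46), Cherp (-0.70 and -0.41), Jmjd6, a lysyl hydroxylase that acts on U2AF2 (-0.54 and -0.22), Sf3b4 (-0.35 and -0.24) and Sugp1 (-0.29 and -0.29). Members of the same complex, such as Sf3a2 and Sf3a3, therefore went in opposite directions.

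With sudemycin D6 Sf3b3, a partner of SF3B1 in the SF3B complex, was called higher in both genotypes, with a log2 fold change of 0.61 in U2AF1(WT) (FDR=0.0136) and 0.54 in U2AF1(S34F) mice (FDR=0.00123, edgeR). Jmjd6 was the other gene of the list called in U2AF1(WT) mice, at -0.37 (FDR=0.0489), where 3.07% of all genes were called. In U2AF1(S34F) mice 8 of 39 were called, against 10.8% of all genes (4.94% higher and 5.85% lower), and all were higher, Sf3b3, Sf3a2 (0.45), Cherp (0.45), Sf3b4 (0.34), Sf3a1 (0.31), Ddx39 (0.25), Ptbp1 (0.23) and Hnrnpc (0.18). The list's medians with drug were 0.06 and 0.05, and all genes had 0.00 and -0.01. Sf3b1, which encodes the drug's target, had 0.07 and 0.00 (FDR=0.821 and 0.984). In the comparison of drug-treated U2AF1(S34F) with vehicle-treated U2AF1(WT) mice 26 were called, 22 higher and 4 lower, against 50.2% of all genes (25.1% in each direction), and the test of whether the drug difference differed between genotypes called none, with Jmjd6 at the smallest FDR of 0.448.

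The genes whose log2 CPM followed each member most closely over the 20 mice are given as a description, since the mice share 4 groups. They were Rnf7 (Pearson r=0.964) and Rbx1 (0.942) for U2af1, Ctdp1 (0.949) and Ddx54 (0.942) for U2af2, Asb6 (0.854) and Eid2b (0.848) for U2af1l4, and Ptplad2 (0.922) and Lyst (0.918) for Zrsr1. Those for Zrsr2 were Clk1 (0.880) and Ddx5 (0.873), for Puf60 Mea1 (0.906) and Dapk3 (0.888), for Rbm39 Zzz3 (0.928) and Taok1 (0.915), and for Sf1 Scaf4 (0.971) and Srrm1 (0.970). Between members, U2af2 and Rbm39 had the lowest correlation (r=-0.76), followed by U2af1 and Sf1 (-0.71).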

How the data were processed

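Bulk marrow RNA of 20 mice in 4 groups of 5, grouped by the labels, was sequenced as stranded, ribosomal RNA-depleted paired-end libraries. The authors aligned reads with TopHat2 2.0.8 to mm9 and deposited raw counts per gene and counts of reads per junction, which were used as deposited; the counter is not given in the sources used here. From these counts, genes were tested with edgeR 4.0.16 (filterByExpr, TMM, robust quasi-likelihood fit, R 4.3.3) on the mice of each comparison, with Benjamini-Hochberg adjustment over all genes tested and calls at FDR<10%. DESeq2 1.42.0 and limma 3.58.1 served as alternatives. CPM are TMM-scaled, log2 values have a prior count of 2, and error is counting error plus the spread between mice; p-values measure the spread between these mice, and nothing says whether the 5 in a group shared a donor pool.

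Splicing events (mean of at least 10 reads, and of at least 1 for the lesser isoform) were tested as ratios of 2 junction counts with 1 coefficient a mouse and dispersion 0 in edgeR's quasi-likelihood fit. That formulation came from earlier work on these data, where it was chosen after many had been run, most of which gave no call. Its prior degrees of freedom were infinite for nearly all events, so that an event's own spread between mice hardly entered, and limma, an estimated dispersion and exact permutation tests are reported for that reason. Event definitions were widened after the files were seen, to pair annotated ends that are not annotated together. For single values the two-sided exact permutation test of means was used (smallest p 0.00794).

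All 8 members were named with every event or junction of theirs called in any comparison, the U2af1 exclusive exons in any case, 2 genes most correlated with each member, and list genes called with the drug or in both genotype comparisons; the members and lists were chosen with earlier results of these data known. Sequences and annotation were read from mm9 and Gencode with samtools 1.23.1. The gene and event tests were also run on simulated counts with the same spread for every gene and for every event. Those runs cannot show how the tests behave where events differ in spread.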

Additional observations from a re-analysis of the deposited data

Results flagged for a closer look

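Over the 88 groups of 5 mice examined, chance sets about 1 in 20 apart, and 4 held a mouse far from the other mice of its group. Zrsr1 stood at 17.2 CPM in drug-treated U2AF1(WT) mouse 9 (gap over range 0.885), and the drug comparison changed without it, as given above. The Rbm39 55-base exon after the 50-base exon had a Ψ of 0.0557 in drug-treated U2AF1(WT) mouse 8 (0.797). The Rbm39 155-base exon after the 73-base exon had a Ψ of 0.0981 in drug-treated U2AF1(WT) mouse 12 (0.746). The ratio of U2af1 reads joining exons 1 and 2 to those joining exons 5 and 6 was 0.631 in vehicle-treated U2AF1(S34F) mouse 3 (0.749), still above every vehicle-treated U2AF1(WT) mouse.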

How the results depend on the processing

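No called result changed direction under an alternative, and no alternative called a result the other way. The sign changed in 40 of 1470 values that left out a mouse and in 3 of 794 others, each for a result that was not called and was small (4 log2 fold changes of at most 0.06 in size, Rbm39 for mutant and drug against neither and Puf60 between genotypes under drug among them, and 10 differences of Ψ of at most 0.00838). Of the member fold changes 284 stayed on their side of the threshold outside the fits that left out a mouse, 18 lost a call and 5 gained one. Members called between genotypes under vehicle (5) became 3 with no filter on low counts, 3 at FDR below 0.05 and 2 with a replicate block. With the drug in U2AF1(WT) mice (0) they became 1 by DESeq2 and 3 in 1 model of all 20 mice, and in U2AF1(S34F) mice (2) 1 with no filter, 0 in 1 model and 0 at FDR below 0.05. Drug-treated U2AF1(S34F) against vehicle-treated U2AF1(WT) mice (5) gave 3 with no filter. Splicing was the less stable measure. The event calls under vehicle (7) became 1 with limma, 0 with an estimated dispersion, 2 at |ΔΨ|>0.05, 3 with annotated pairings only and 2 with the block. Under drug (5) they became 1, 0, 1 and, with the block, 2. For the drug in U2AF1(WT) mice (3) limma, estimated dispersion and annotated pairings gave 0, 0 and 1. In U2AF1(S34F) mice (2) these gave 0, 0 and 1, 1 model gave 1 and |ΔΨ|>0.05 gave 0. For mutant and drug against neither (8) limma, estimated dispersion, |ΔΨ|>0.05 and annotated pairings gave 4 (3 of the 8 and 1 other), 0, 2 and 5. Junction shares by limma were 2, 2 and 5 against 7, 7 and 12. The cause was not tested, and the settings on annotated pairings and the lesser isoform were chosen after seeing the data. Without 1 mouse, gene calls ran from 3 to 5, 4 to 5, 0 to 1, 1 to 3, 4 to 5 and 0 to 0 (vehicle, drug, drug in U2AF1(WT), drug in U2AF1(S34F), mutant and drug against neither, difference of drug effects), event calls from 3 to 7, 3 to 5, 0 to 3, 1 to 3, 5 to 9 and 0 to 0, and share calls, in the first 5, from 6 to 10, 6 to 11, 0 to 2, 0 to 2 and 11 to 14. Same-numbered mice did not deviate together (r=0.066, 0.133 and -0.048 under vehicle, 0.073, 0.116, 0.211 and -0.111 under drug), so the block rests on shared numbers only. It left 3 of 4 gene calls under drug and 6 of 7 share calls in each genotype comparison. No paired analysis was possible because the groups of the drug comparisons share no numbers, nor for mutant and drug against neither, which share 1.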

Other observations

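A junction inside Rbm39 with neither end annotated (chr2:155995502-155995709, GC-AG) had a mean of 100 reads (87 to 119) in vehicle-treated and 60.6 (34 to 74) in drug-treated U2AF1(WT) mice, against 10.2 (0 to 48) and 12.6 (0 to 32) in U2AF1(S34F) mice. It entered no test here. Another Rbm39 junction with 1 annotated end (chr2:155993486-155996067) had means of 11.4, 4.6, 39.8 and 18.2 reads in vehicle-treated and drug-treated U2AF1(WT) and vehicle-treated and drug-treated U2AF1(S34F) mice.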
